A study of Homo sapiens with 4 samples.

Results

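HOX genes encode homeodomain transcription factors that give body segments their identity, and the human genome carries them in 4 clusters, named A to D. Of 61228 features in the count files, 39 had a HOX cluster symbol, and 28 of these had 10 or more counts in at least 2 of the 4 libraries. The 28 genes were tested, and they are described by cluster and by paralog number, which is the gene's place in its cluster. The libraries came from H1792 cells, an established human lung cancer cell line whose genotype is given as WT, with 2 libraries treated with DMSO, the solvent control, and 2 treated with ACBI1, all for 96 h. ACBI1 is a degrader of the chromatin remodelling ATPases SMARCA2 and SMARCA4 and of PBRM1, which belongs to the PBAF type of SWI/SNF complex, and its dose was written as 1 mM, a unit that could not be checked and may be a slip for a lower one. The comparison asks how HOX transcripts differed after treatment with the degrader. Nothing in the labels says whether the libraries of a group came from separate cultures, so p-values measure the spread between these libraries, which may be technical.

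Genes of low paralog number lie at the 3′ end of a cluster and are switched on first and most anteriorly in the embryo, and those of high number lie at the 5′ end and act more posteriorly. Retinoic acid is known to induce the 3′ genes, Trithorax proteins keep active clusters open and Polycomb proteins keep silent ones closed. HOX proteins bind DNA together with PBX and MEIS partners. In lung development HOXA5 is required for normal airway formation, and several HOXA and HOXB genes are expressed in the embryonic lung.

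The clusters also hold microRNAs of the miR-10 and miR-196 families, which target HOX transcripts. Their mature sequences are shown because one of them has a nearly perfect match in a gene described below. Capitals mark the seed, bases 2 to 8 from the 5′ end, as RefSeq gives the sequences on GRCh38.p14. The first comes from MIR196A1 in the HOXB cluster (chr17:48632532-48632553, minus strand) and, identical, from MIR196A2 in the HOXC cluster (chr12:53991762-53991783, plus strand), the next from MIR196B in the HOXA cluster (chr7:27169528-27169549, minus strand) and the last from MIR10A in the HOXB cluster (chr17:48579904-48579926, minus strand).
hsa-miR-196a-5p: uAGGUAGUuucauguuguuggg
hsa-miR-196b-5p: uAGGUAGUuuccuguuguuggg
hsa-miR-10a-5p: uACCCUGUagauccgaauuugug
Both miR-196 members share 1 seed, and miR-10a has another. The window of the HOXB8 transcript most complementary to miR-196a-5p lies in exon 2, in the untranslated region 3′ of the coding sequence (chr17:48612770-48612791, minus strand, GRCh38), and capitals mark its complementary bases.
HOXB8 window: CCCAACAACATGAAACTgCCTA
It is complementary to 21 of 22 bases, and its single change from the full complement is A5G, counted from the miRNA's 5′ base (the full complement has A and the transcript G). The change lies in the seed, where G faces U, a G:U pair not counted as complementary. HOXB8 thus does not hold the exact seed match given next. The member with the next-best window, HOXA7, is complementary to 15 of 22 bases. The seed match ACTACCT occurred in the longest coding transcript of 9 of the 28 genes and of 19.1% of 13327 tested genes, and HOXA7 holds it 4 times. ACAGGGT, the match to the miR-10a seed, occurred in 5 of the 28 and in 21.6% of the same 13327.

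Upstream sequence is shown for HOXA3 and HOXA13, of low and high paralog number in the HOXA cluster. Their fitted differences had opposite signs, and that of HOXA13 was not called. The HOXA3 start shown is about 49.8 kb from that of HOXA2, between the starts of HOXA6 and HOXA7, and that of HOXA13 about 97.3 kb. Each run is the 250 bases before an annotated start (RefSeq, GRCh38.p14, minus strand), at chr7:27152584-27152833 for the most upstream of 7 HOXA3 starts and at chr7:27200092-27200341 for HOXA13. Capitals mark CCAAT and TATAAA on either strand.
HOXA3 upstream: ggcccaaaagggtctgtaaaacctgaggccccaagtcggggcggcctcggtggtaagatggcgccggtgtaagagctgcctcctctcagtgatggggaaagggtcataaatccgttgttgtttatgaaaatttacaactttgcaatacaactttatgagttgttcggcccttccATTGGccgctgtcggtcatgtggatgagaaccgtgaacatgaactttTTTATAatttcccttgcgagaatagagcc
HOXA13 upstream: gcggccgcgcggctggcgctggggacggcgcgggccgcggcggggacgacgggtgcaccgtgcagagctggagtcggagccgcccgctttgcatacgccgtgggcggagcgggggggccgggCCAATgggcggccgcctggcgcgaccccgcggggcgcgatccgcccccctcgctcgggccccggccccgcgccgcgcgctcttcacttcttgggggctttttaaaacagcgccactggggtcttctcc
The HOXA3 run holds CCAAT at -76 and TATAAA at -29, and the HOXA13 run holds CCAAT at -128. RefSeq promoters were matched for 12 of the 28 genes, with 19 starts. CCAAT was found before 12 of these 19 starts and before 32.0% of all 35114, and TATAAA before 5 of 19 and 10.7% of all. A HOX-PBX motif, TGATNNAT, was found before 1 of 19 starts (HOXA2) and 6.47% of all, the retinoid receptor half-site AGGTCA before 0 of 19 and 12.1% of all, and TGANTCA, the AP-1 motif, before 0 of 19 and 6.57% of all. The motifs were searched on both strands, and a match describes letters only. CG dinucleotides numbered 11 in the HOXA3 run and 40 in the HOXA13 run, beside a median of 11 over all promoters. The 16 genes without an entry include HOXA5, HOXB2, HOXB3, HOXB4, HOXB5, HOXB6, HOXB7, HOXB8, HOXB9, HOXB13, HOXC6, HOXC8, HOXC9, HOXC10 and HOXC11.

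The libraries held 64281850 to 86010100 counts in genes. Levels are CPM, the counts of a gene per 1000000 counts of its library after TMM scaling, and a gene was called where edgeR's quasi-likelihood test gave a Benjamini-Hochberg adjusted p under 0.05 over all 19159 genes tested. By this rule 3331 genes (17.4%) were called, 1294 higher with ACBI1 (6.75%) and 2037 lower (10.6%). ACBI1 acts on proteins, so transcripts of its targets do not check the treatment. SMARCA4 stood at 284 and 216 CPM with DMSO and 414 and 398 with ACBI1 (log2 change 0.70, SE 0.20, adjusted p = 0.0583), SMARCA2 at 22.8 and 24.4 against 17.5 and 18.4 (log2 change -0.40, adjusted p = 0.163), and PBRM1 differed by 0.10 on the log2 scale (adjusted p = 0.734). None of these 3 was called by edgeR, 1 had an unadjusted p under 0.05, and DESeq2 and limma-voom each called SMARCA4. Of the epithelial markers, KRT7, KRT8, KRT18 and KRT19 fell (KRT8 from 155 and 192 CPM to 69.1 and 60.9). CDH1 was already low with DMSO, at 4 and 16 counts against 7 and 6 with ACBI1, and was not tested. NAPSA had 17 and 17 counts against 4 and 9 and was not called, and SFTPC had at most 1 count in a library. EPCAM had 5.38 and 2.78 CPM against 15.6 and 4.84, with a log2 change of 1.32 that was not called (adjusted p = 0.179). VIM, which is in the same list and enters its median, stood at 2677 to 3034 CPM in every library, and the lung lineage marker NKX2-1 had 0 counts throughout. Fibroblast markers summed to 360 and 800 CPM with DMSO and 73.0 and 227 with ACBI1, with 3 of 6 called lower. The endothelial markers, mostly PECAM1, summed to 12.6 and 48.5 CPM against 0.0112 and 0.0763, while ERG was at 0 in every library. Immune markers summed to 0.430 to 1.06 CPM, with 4 of 9 at 0 throughout. The keratin, fibroblast and endothelial lists differed between the groups, and their part in the HOX results was not tested. In bulk RNA, fewer cells of a kind and less RNA per cell cannot be told apart.

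HOX transcripts were lower in sum after ACBI1. HOXA3, a regulator of pharyngeal organ development, fell to 0.514 of its DMSO level, and no HOX gene was called higher. Summed over all 39 genes, HOX transcripts made up 346 and 332 CPM with DMSO and 263 and 256 CPM with ACBI1, a ratio of 0.764. Both ACBI1 sums lay below both DMSO sums; 2 against 2 libraries cannot give an exact permutation p under 0.333.

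All 28 genes were tested. HOX genes called lower, with HOXA3 among them, were 2 of 28 beside 10.6% of all genes tested, and 0 were called higher beside 6.75%. Called in either direction were thus 2 of 28 beside 17.4%. Without adjustment, edgeR gave p under 0.05 for 6 of the 28, all lower (HOXA3, HOXA5, HOXA11, HOXB8 and HOXC11 among them). The share of all genes at that unadjusted level is not given here, so the 6 have no background beside them. DESeq2 called 4 of the 28 lower and 0 higher, beside 2604 lower and 1907 higher of 19159 genes tested. In limma-voom 1 was called lower and 0 higher, beside 2004 lower and 1308 higher of the same 19159. The fitted log2 change was negative for 23 genes and positive for 5, with a median of -0.39, beside a median of 0.01 over all genes tested, of which 50.4% were positive. The median absolute log2 change was 0.52 over the HOX genes and 0.47 over all genes. An absolute log2 change of 1 or more was fitted for 3 of the 28 and for 22.6% of all genes. The DMSO and ACBI1 libraries did not overlap for 17 of the 28 genes (15 lower, 2 higher), against 63.2% of all genes tested. HOXD13 passed the count minimum only through its ACBI1 libraries, so the rule favoured its direction. It is among the 2 higher, the 5 positive and the 3 with an absolute log2 change of 1 or more, and in the medians by paralog number below.

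**Figure D1:**
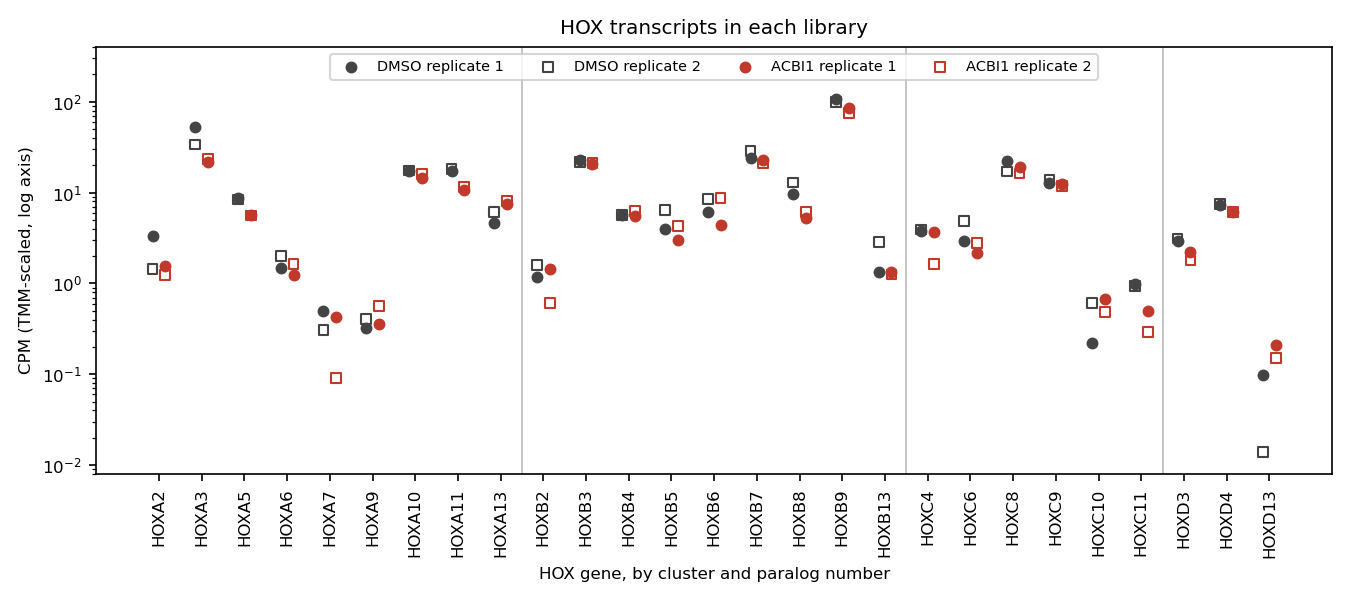
CPM (TMM-scaled, log axis) of HOX genes past the count minimum in the 2 DMSO libraries (grey) and 2 ACBI1 libraries (red), by cluster and paralog number. HOXB9 is the highest gene in every library, and HOXA3 shows both red points below both grey ones.

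Per kilobase of exon, the scale on which genes can be compared, HOXB9 was the highest HOX gene with DMSO, at 39.6 ± 2.14 CPM per kb (SD, n = 2). HOXB7 followed at 17.3 ± 1.96. HOXC8, at 10.4 ± 1.89, and HOXA3, at 10.1 ± 3.17, did not differ beyond their spread. The next were HOXC9 at 7.83 ± 0.454 and HOXA11 at 7.72 ± 0.308, also within their spread of each other. HOXB8 (5.49 ± 1.15), HOXD4 (5.07 ± 0.0970), HOXA5 (5.01 ± 0.129) and HOXA10 (4.67 ± 0.0527) came after them. When the same counts were divided by exon bases shared with no other GENCODE 29 gene, the order differed below HOXB9. HOXD4 came next, at a mean of 25.9 CPM per unshared kb with DMSO, then HOXB7 (17.3), HOXA3 (12.3), HOXA11 (11.2) and HOXC8 (10.4). The counts were not limited to those bases, so this scale can overstate genes with much shared exon. HOXD4 has 286 such bases among 1464 of exon. Per kb of all exon, the lowest member was HOXD13 at 0.0250 ± 0.0266 CPM per kb, and the next lowest were HOXA9 at 0.119 ± 0.0196, HOXA7 at 0.165 ± 0.0544 and HOXC10 at 0.179 ± 0.118, with the last 3 within their spread of each other. HOXA7 stood at 0.441 per unshared kb, above HOXC10 (0.198) and HOXC11 (0.295).

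The other 11 HOX genes fell short of the count minimum and had no test. HOXB1, HOXD8 and HOXD10 had 0 counts in every library, which allows levels of up to 0.0335 to 0.0458 CPM (3 counts, counting error only). HOXA4, HOXC5, HOXC12, HOXC13, HOXD1, HOXD9, HOXD11 and HOXD12 had at least 1 count in some library. At the edge of the rule, HOXD13 with 8 and 1 counts (DMSO) and 19 and 10 (ACBI1) was inside it, and HOXC13 with 5 and 3 against 20 and 4 was outside. From HOXD8 to HOXD12 no gene had more than 2 counts in any library.

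The HOXA cluster had 10 members and a median log2 change of -0.60, the lowest of the 4 clusters with all libraries. Without DMSO replicate 1 it was -0.34, above the medians of clusters B (-0.39) and C (-0.35). Its summed level was 112 and 94.2 CPM with DMSO and 65.3 and 70.2 CPM with ACBI1.

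HOXA3 (chr7:27106184-27152581, minus strand, GRCh38) had the most counts of the cluster. It had 53.2 and 33.9 CPM with DMSO and 21.5 and 23.2 CPM with ACBI1. The 2 DMSO libraries differed from each other, yet both exceeded both ACBI1 libraries. The gene fell by 0.96 on the log2 scale (SE 0.24, adjusted p = 0.0448). Without DMSO replicate 1, the higher one, the log2 change was -0.59 (adjusted p = 0.109). The call was also lost without ACBI1 replicate 1 (0.163) or 2 (0.102), and it was kept without DMSO replicate 2 (0.00265). In limma-voom HOXA3 missed the threshold (adjusted p = 0.0548).

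HOXA2, the hindbrain and second pharyngeal arch gene, had 3.30 and 1.45 CPM with DMSO and 1.55 and 1.24 with ACBI1. The groups overlapped, and its log2 change of -0.77 (95% interval -1.91 to 0.38) was not called.

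In the middle of the cluster HOXA5 had 8.71 and 8.40 CPM with DMSO and 5.66 and 5.58 CPM with ACBI1. The replicates lay close together and the groups apart, but the log2 change of -0.60 was not called (adjusted p = 0.131). HOXA6 had a log2 change of -0.28 and HOXA7 one of -0.59, both with overlapping groups. HOXA7 rested on 40, 22, 38 and 6 counts, and its 95% interval ran from -2.34 to 1.16. The summed level of paralogs 4 to 8 in this cluster was 10.7 and 10.8 CPM against 7.37 and 7.32.

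At the 5′ end the genes did not share a direction. HOXA11, a limb and urogenital patterning gene, had 17.3 and 18.3 CPM with DMSO and 10.8 and 11.6 with ACBI1. Its groups were apart, with a log2 change of -0.67 that edgeR did not call (adjusted p = 0.0609) and DESeq2 did. HOXA13, which patterns the digits and hindgut, had 4.63 and 6.13 CPM with DMSO and 7.53 and 8.11 with ACBI1. Both ACBI1 libraries were above both DMSO libraries, and the log2 change was 0.54 (95% interval -0.11 to 1.19, adjusted p = 0.213). HOXA9 had a log2 change of 0.34 on 26 to 37 counts a library, and HOXA10 one of -0.19 at 17.2 and 17.4 CPM with DMSO against 14.4 and 16.0. Paralogs 9 to 13 of the cluster summed to 39.4 and 42.3 CPM with DMSO and 33.0 and 36.3 with ACBI1, a ratio of 0.848.

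**Figure D2:**
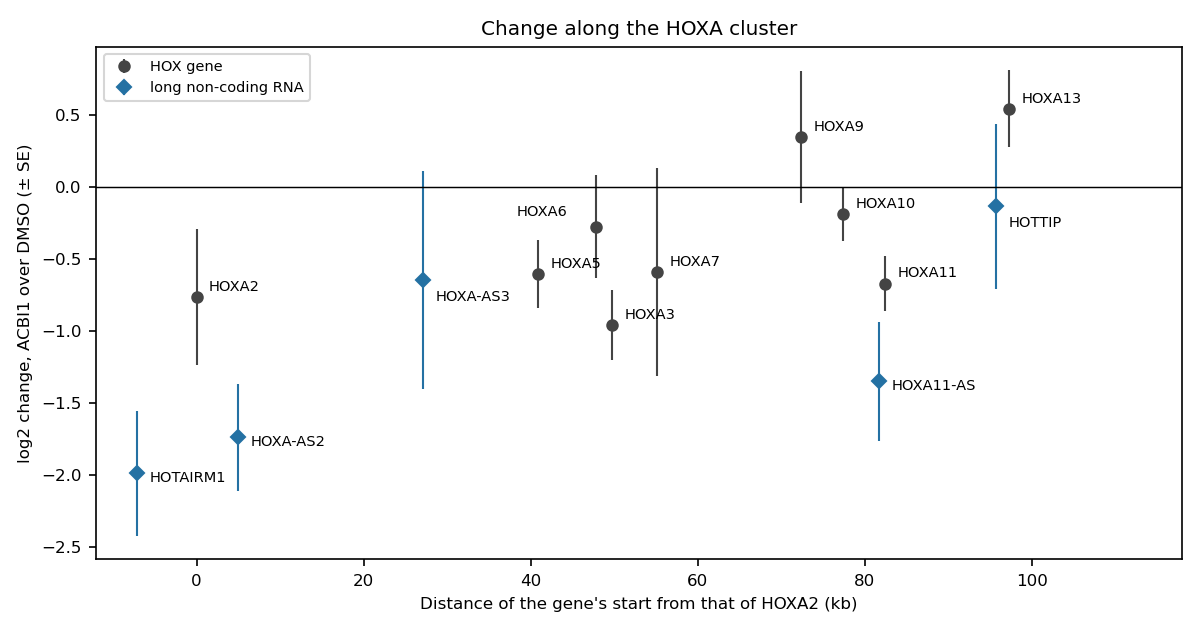
Log2 change (ACBI1 over DMSO, ± SE) of HOX genes (grey) and long non-coding RNAs (blue) against the distance of each gene's start from that of HOXA2, in kb. HOTAIRM1 and HOXA-AS2 lie lowest at the left, and HOXA13 lies highest, 97.3 kb from HOXA2.

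Across 9 HOXA genes, from HOXA2 to HOXA13, the log2 change and the paralog number had a Spearman rho of 0.70 (Pearson r 0.72). In cluster B the rho was -0.50 over 9 genes, and in cluster C it was 0.09 over 6. These describe genes of the same 4 libraries, which are not independent replicates. Whether the clusters differ in this was not tested. The start of HOXA3 is annotated upstream of HOXA6, because its longest transcripts run past HOXA4, HOXA5 and HOXA6, so the order by start differs from the order by number.

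**Figure D3:**
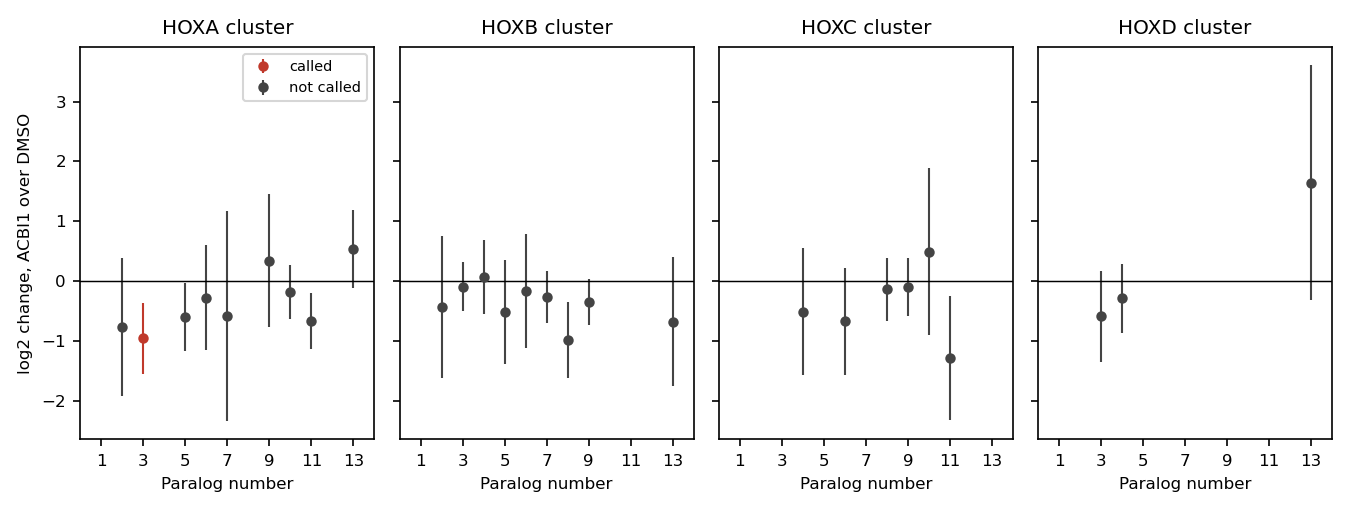
Log2 change (ACBI1 over DMSO) with its 95% interval for HOX genes against paralog number, 1 panel a cluster, with called genes in red. HOXA3 (-0.96) is the only red point drawn, and most other intervals cross 0.

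The HOXB cluster had 9 members, a median log2 change of -0.35 (-0.14 without DMSO replicate 2) and no called gene. Its summed level was 181 and 186 CPM with DMSO and 150 and 144 CPM with ACBI1. HOXB9, a thoracic patterning gene, had 106 and 98.4 CPM with DMSO and 85.6 and 74.7 with ACBI1. Its groups did not overlap, and the log2 change of -0.35 was not called (95% interval -0.74 to 0.04, adjusted p = 0.180).

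HOXB8, known for holding back the maturation of myeloid progenitors, had 9.59 and 12.9 CPM with DMSO and 5.29 and 6.07 with ACBI1. It was lower in both ACBI1 libraries, with a log2 change of -0.99 (SE 0.26) just short of a call in edgeR (adjusted p = 0.0511) and called by DESeq2 (adjusted p = 0.00424). Without DMSO replicate 1 edgeR called it (log2 change -1.18, adjusted p = 0.0216). The miRNA whose match in HOXB8 is printed above has the same mature sequence from MIR196A1 and MIR196A2. MIR196A1 had 69 and 45 counts with DMSO and 89 and 62 with ACBI1. That is 0.847 and 0.626 CPM against 0.994 and 0.946, a log2 change of 0.40 that was not called (adjusted p = 0.505). These are reads over the miRNA gene in long-RNA libraries, not mature miRNA. MIR10A, MIR10B and MIR196B had 0 counts in every library, and MIR196A2 and MIR615 had at most 2.

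Among the other HOXB genes, HOXB3 stood at 23.0 and 21.5 CPM with DMSO against 20.5 and 21.2, with a log2 change of -0.09 (95% interval -0.50 to 0.32). HOXB7, a growth-promoting homeobox gene in several tumours, had 24.3 and 28.5 CPM against 23.1 and 20.9 (log2 change -0.26). HOXB4, a gene of blood stem cells, was the only HOXB gene with a positive log2 change, 0.06. HOXB2 (-0.43), HOXB5 (-0.52), HOXB6 (-0.17) and HOXB13 (-0.68), a prostate and hindgut gene, had negative log2 changes with overlapping groups. The HOXB13 difference came from DMSO replicate 2, at 2.84 CPM where the other libraries had 1.25 to 1.35.

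The HOXC cluster had 6 members, a median log2 change of -0.33 (-0.06 without ACBI1 replicate 2) and no called gene, and it summed to 42.7 and 41.1 CPM with DMSO against 39.1 and 33.4. HOXC8, a thoracic gene, had 22.1 and 17.1 CPM with DMSO and 19.3 and 16.3 with ACBI1 (log2 change -0.14, groups overlapping). HOXC9 had 12.6 and 13.7 CPM against 12.6 and 11.9 (log2 change -0.10). HOXC11, at the 5′ side, had 0.995 and 0.931 CPM with DMSO and 0.492 and 0.290 with ACBI1. It was lower in both ACBI1 libraries, with a log2 change of -1.29 (adjusted p = 0.0907). HOXC4 (-0.52), HOXC6 (-0.67) and HOXC10 (0.49) were not called, and the low ACBI1 mean of HOXC4 came from replicate 2, at 1.63 CPM against 3.72 in replicate 1.

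The HOXD cluster had 3 members and summed to 10.4 and 10.7 CPM with DMSO against 8.52 and 8.07 with ACBI1. HOXD4 had 7.32 and 7.52 CPM with DMSO and 6.04 and 6.12 with ACBI1 (log2 change -0.29, adjusted p = 0.444). HOXD3 had 2.94 and 3.11 CPM against 2.22 and 1.78 (log2 change -0.59, adjusted p = 0.236). HOXD13, the digit gene, was at most 0.212 CPM in any library, with a log2 change of 1.65 that was not called (adjusted p = 0.210).

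By paralog group, paralog 11 had both its members at unadjusted p under 0.05, and their sum was 18.3 and 19.3 CPM with DMSO against 11.3 and 11.9 with ACBI1. Paralog 13 was the only group whose sum was higher with ACBI1, at 9.32 and 9.58 CPM against 6.13 and 9.02. Most of that sum was HOXA13, at 7.53 and 8.11 CPM with ACBI1 against 4.63 and 6.13, which was not called. HOXB13 of the same group had a log2 change of -0.68, and HOXD13 was at most 0.212 CPM in any library. Over all clusters the median log2 change was -0.68 for paralogs 1 to 3 (6 genes), -0.40 for paralogs 4 to 8 (12 genes) and -0.15 for paralogs 9 to 13 (10 genes). These pooled medians do not describe each cluster. HOXA genes were 3 of the 6 of low number, and cluster B ran the other way (rho -0.50).

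Long non-coding RNAs lie between and against the HOX genes, and 12 of 18 listed ones were tested. Of these 0 were called higher and 2 lower, beside 6.75% and 10.6% of all genes. The 2 lie at the 3′ end of cluster A, and the median log2 change over the 12 was -0.39. HOTAIRM1, a regulator of myeloid HOXA expression, had 115 and 66 counts with DMSO and 29 and 17 with ACBI1. It fell by 1.99 on the log2 scale (SE 0.43, adjusted p = 0.0299). HOXA-AS2, between HOXA2 and HOXA3 starts, had 383 and 541 counts with DMSO and 136 and 141 with ACBI1, and fell by 1.74 (SE 0.37, adjusted p = 0.0290). For both RNAs each ACBI1 library was below each DMSO library. Groups were apart in either direction for 63.2% of all genes tested, and these RNAs were named because they were called. Neither was called without ACBI1 replicate 1, HOTAIRM1 was called only without DMSO replicate 2, and HOXA-AS2 lost its call without DMSO replicate 2 as well (adjusted p up to 0.109 and 0.111).

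Further along, HOXA11-AS had a log2 change of -1.35 (adjusted p = 0.0744) beside the -0.67 of HOXA11, and at the HOXA13 end HOTTIP showed one of -0.14 on 8 to 10 counts a library. In cluster C, the fitted difference was -1.37 for HOXC-AS2 (adjusted p = 0.0596) and -1.50 for HOTAIR, the RNA next to HOXC11 (adjusted p = 0.116), both on the log2 scale. In cluster D, HAGLR had one of 0.83 (adjusted p = 0.176).

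Sense and antisense reads can be told apart only in stranded counting, which is not stated. In GENCODE 29, exons of other genes on either strand overlapped 17.9% of HOXA3 exon bases, 31.1% of HOXA11, 62.5% of HOXA7, 74.1% of HOXD3 and 80.5% of HOXD4. The HOXD4 overlap is with AC009336.2 alone, a symbol that the count files do not list, and that of HOXA7 with HOXA-AS3 and of HOXA11 with HOXA11-AS, which they do list. How reads in these stretches were assigned was not tested.

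TALE homeobox genes encode DNA-binding partners of HOX proteins. Of 10 tested, 1 was called higher and 3 lower, beside 6.75% and 10.6% of all genes, and 6 were not called. PBX3 rose from 18.6 and 20.3 CPM to 31.9 and 34.0 (log2 change 0.76, adjusted p = 0.0291). PBX2 fell from 46.5 and 51.7 CPM to 31.4 and 29.6 (-0.69, adjusted p = 0.0331), MEIS1 from 16.3 and 22.5 to 9.45 and 8.94 (-1.08, adjusted p = 0.0294), and MEIS3 from 163 and 186 counts to 50 and 44 (log2 change -1.90, adjusted p = 0.0215). Groups were apart for all 4, beside 63.2% of all genes tested, and the 4 were named because they were called. None of the 4 calls held with either ACBI1 library left out, and PBX3 was called in 0 of the 4 fits that left out a library.

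Genes of retinoid uptake and metabolism, the pathway that feeds the 3′ HOX genes, had the lowest median log2 change outside the marker lists. Medians were lower for epithelial (-1.33), fibroblast (-2.55) and endothelial markers (-8.83, 2 genes tested). Of 13 retinoid genes tested, 4 were called lower and 0 higher, beside 10.6% and 6.75% of all genes. Their median log2 change was -0.997. STRA6, the cell-surface receptor that takes up retinol, had 307 and 246 CPM with DMSO and 12.6 and 9.91 with ACBI1, and fell by 4.62 (SE 0.23, adjusted p = 0.00136). DHRS3, a retinaldehyde reductase, went from 202 and 215 CPM to 12.5 and 33.4 (log2 change -3.19, adjusted p = 0.00980). RDH10, which oxidises retinol, went from 62.0 and 102 to 18.1 and 29.5 (-1.79, adjusted p = 0.0192). STRA6 and DHRS3 stayed called in each of the 4 fits with a library left out. RDH10 lost its call without ACBI1 replicate 1 (adjusted p = 0.0532). RARB, a receptor that is itself induced by retinoic acid, had 20.96 and 23.96 CPM against 8.01 and 17.4 and was not called (log2 change -0.82, adjusted p = 0.174). Other genes of the list went the other way, and none of these was called. CRABP2 had 1.34 and 2.59 CPM against 4.13 and 3.51 (log2 change 0.96). RARG had 31.2 and 39.7 CPM against 44.7 and 51.9 (log2 change 0.45), and RXRA had a log2 change of 0.25 with overlapping groups. CYP26A1, an enzyme that breaks down retinoic acid, had at most 3 counts in a library.

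**Figure D4:**
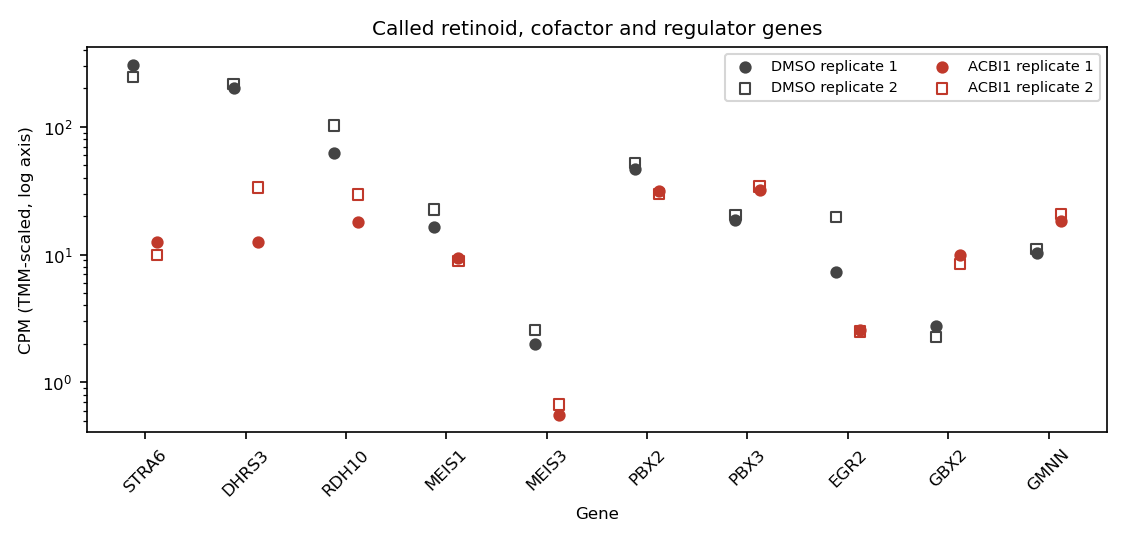
CPM (TMM-scaled, log axis) in the 2 DMSO libraries (grey) and 2 ACBI1 libraries (red) of called genes of retinoid handling, HOX partners and upstream regulators. STRA6 falls from 246 and 307 CPM to about 10 CPM, while PBX3, GBX2 and GMNN lie higher in both ACBI1 libraries.

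Of 8 tested regulators known to act upstream of HOX genes, 2 were called higher and 2 lower, beside 6.75% and 10.6% of all genes. GBX2, a homeobox gene of the anterior hindbrain, rose from 2.75 and 2.28 CPM to 9.92 and 8.47 (log2 change 1.87, adjusted p = 0.0104). GMNN, which encodes the replication regulator geminin, rose from 10.3 and 11.02 to 18.4 and 20.7 (0.87, adjusted p = 0.0316). EGR2, a hindbrain activator of HOX genes, fell from 7.28 and 19.6 CPM to 2.59 and 2.50 (-2.40, adjusted p = 0.0251). GBX2 was called in each fit with a library left out, GMNN in none, and EGR2 only in the 2 without a DMSO library.

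The chromatin regulators that maintain HOX states gave few calls. Of 17 Trithorax and MLL complex genes edgeR called 0, beside 17.4% of all genes. Without adjustment 4 had an edgeR p under 0.05, all higher (KMT2D, WDR5, HCFC1 and DOT1L), and DESeq2 and limma-voom each called 1 higher. Over all 19159 genes DESeq2 called 1907 higher and limma-voom 1308, and the unadjusted share is not given here. KMT2A, the MLL methyltransferase that acts at HOX clusters, had 112 and 123 CPM with DMSO and 107 and 108 with ACBI1 (log2 change -0.12). Of 22 Polycomb genes 1 was called in each direction, beside 6.75% of all genes called higher and 10.6% called lower. RNF2, the ubiquitin ligase of PRC1, rose from 27.6 and 27.6 CPM to 49.3 and 46.6 (0.80, adjusted p = 0.0205). JARID2, a PRC2 partner, fell from 22.7 and 27.5 to 13.01 and 12.2 (-0.99, adjusted p = 0.0222). Both calls were lost with either ACBI1 library left out, that of JARID2 also without DMSO replicate 2. EZH2, the PRC2 methyltransferase, had a log2 change of 0.33 with overlapping groups.

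Of 19 genes tested that lie near the clusters, 4 were called lower and 0 higher, beside 10.6% and 6.75% of all genes. Their median log2 change was -0.08. Beside HOXA, SKAP2 fell from 51.7 and 54.0 CPM to 24.7 and 32.7 (-0.88, adjusted p = 0.0288) and HIBADH from 61.3 and 70.2 to 32.5 and 42.1 (-0.82, adjusted p = 0.0350). SNX10, also on the HOXA side, had 192 and 124 counts with DMSO and 671 and 261 with ACBI1. Its log2 change of 1.49, the largest of the list, was not called (adjusted p = 0.0543), and DESeq2 called 1 gene of the list higher. CALCOCO2, on the HOXB side, fell by 0.90 (adjusted p = 0.0216), and CALCOCO1, on the HOXC side, fell by 1.23 (adjusted p = 0.00891). MTX2 (0.11) and LNPK (0.03), beside HOXD, were not called. CALCOCO1 was called in all 4 fits with a library left out, SKAP2 in 3, CALCOCO2 in 2 and HIBADH in 1.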

How the data were processed

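RNA-seq libraries were aligned and counted by the authors; the submitters' processing notes list TopHat2 2.1.1, HTSeq 0.11.0 and hg38. The deposited values are raw whole-number counts per gene symbol. The annotation and strand setting are not given in the sources used here. The 5 lines that name no gene, which include 5.07% to 6.24% of reads outside annotated genes, were left out of library sizes. Genes were filtered with edgeR 4.0.16 (filterByExpr, minimum count 10, minimum total 15; R 4.3.3), scaled by TMM and tested two-sided with glmQLFit and glmQLFTest on treatment alone, over all 4 libraries. The biological coefficient of variation was 0.244. The SE is the log2 change divided by the square root of F. The HOX genes, the gene lists and the tests were chosen with earlier results of these data known. HOX genes past the count minimum are named, as is every degrader target. From the other lists come the called genes, up to 4 a list by size of change, and cluster RNAs and flanking genes beside HOX genes. The remaining named genes (RARB, CRABP2, RARG, RXRA, CYP26A1, KMT2A, EZH2 and the unadjusted Trithorax genes) were chosen after their values were seen. Results on some single genes are not reported here. Alternatives used DESeq2 1.42.0, limma 3.58.1 (voom), other scalings and filters, a replicate block and left-out libraries. Replicates differed beyond counting noise (chi-square per degree of freedom 164 and 107). Tested on simulated data with 200 changed genes, the fit recovered 7% at a log2 change of 1, 71% at 2 and 99% at 4. False calls, of genes left unchanged, numbered 2, 20 and 18 at these sizes, so a call can also be false. Exon lengths and overlaps are from GENCODE 29 (GRCh38). Gene counts come from PCR-amplified reads, so floors cover counting error only.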

Additional observations from a re-analysis of the deposited data

How the results depend on the processing

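The signs of the 28 HOX genes were the same in every alternative that kept all 4 libraries, which refit the same counts. With a library left out, 22 or 23 of the 28 were still negative, but not always the same genes. HOXC8, HOXC10, HOXB6, HOXA7, HOXA9, HOXB2 and HOXB4 each changed sign in some such fit. Among these, HOXA9, HOXB4 and HOXC10 belong to the 5 genes with a positive log2 change. Counts of calls were less stable. Genes called over all genes numbered 3331, 5518 with every gene with a count tested, 783 at adjusted p under 0.01, and 1379 to 4292 with a library left out (fewest without ACBI1 replicate 1). HOX genes called lower numbered 2, against 4 with every gene with a count tested (HOXB8 and HOXC11 added), 4 in DESeq2 (HOXA11 and HOXB8 added), 1 in limma-voom, 0 at adjusted p under 0.01, and 0 to 2 with a library left out, 0 without either ACBI1 library. HOX genes called higher numbered 0 in each of these. The HOX median of -0.39 was -0.30 with library size alone and -0.39 to -0.24 with a library left out.

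With the replicate number as a block, 7909 genes were called, 7 HOX genes lower and 1 higher (HOXA13, adjusted p = 0.0489). Same-numbered libraries deviated together (r = 0.44 across 19159 genes), and the labels do not say that a number marks a shared batch. List calls under the block numbered 6 for Trithorax genes, 11 for Polycomb, 9 for retinoid, 5 for long non-coding RNAs, 8 for flanking genes and 2 for degrader targets.

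These list alternatives were added after seeing the data. At adjusted p under 0.01 the calls were 0 for TALE cofactors, Polycomb genes, upstream regulators and long non-coding RNAs, 2 for retinoid genes and 1 for flanking genes. With every gene with a count tested they were 9 for retinoid genes, 5 for long non-coding RNAs, 2 for Trithorax genes and 1 for degrader targets. DESeq2 called 4 Polycomb genes, 4 long non-coding RNAs, 1 Trithorax gene and 1 degrader target. Library size alone gave 2 Trithorax genes and 1 degrader target, and upper quartile scaling and limma-voom each gave 1 and 1. With a library left out, calls ranged from 0 to 4 for TALE cofactors, 0 to 1 for Trithorax genes, 0 to 2 for Polycomb genes, 2 to 6 for retinoid genes, 1 to 4 for upstream regulators, 0 to 2 for long non-coding RNAs, 1 to 5 for flanking genes and 0 to 1 for degrader targets. The cause of these differences was not tested. With 2 libraries a group, 7% of genes simulated with a log2 change of 1 were recovered, and 2 unchanged genes were called. The simulation changed 200 genes, where 3331 were called in these data, so an adjusted p is harder to pass there. HOX differences of this size can be missed, at a rate that the simulation does not give.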
